A study of Mus musculus with 18 samples.

Results

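The 10 genes described here encode receptors, cytotoxic granule proteins and transcription factors of natural killer (NK) cells: Klrb1c, Klrd1, Klrk1, Ncr1, Nkg7, Gzma, Gzmb, Prf1, Tbx21 and Eomes. They were taken by symbol, without use of their values, and all 10 were found among the 19780 genes measured in LSK and among the 18428 measured in common myeloid progenitors (CMPs). LSK are the Lin-Sca-1+c-Kit+ bone marrow cells that hold the mouse haematopoietic stem and early progenitor cells.

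RNA was sequenced from sorted cells of female mice, with 3 samples in each group. NZBW/F1 mice, the offspring of NZB/OlaHsd and NZW/OlaHsd parents, develop lupus spontaneously and were studied before disease at 12 weeks (F1-P) and with disease at 28 to 36 weeks (F1-L). The controls were C57BL/6 mice of matching ages, young (B6-Y) and old (B6-O). LSK were profiled in all 4 groups and CMPs in F1-P and F1-L, and no group received a treatment or carried a transgene. F1-L mice were both older and diseased, so age and disease cannot be told apart, and the strains came from different breeders. The labels do not say that the samples of a group came from separate mice, so p-values measure the spread between these samples only.

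The gate for LSK removed cells bearing CD11b, Gr-1, Ter119, B220 or CD16/32, of which CD16 is also borne by NK cells, and neither gate as described names CD3, NK1.1 or NKp46. The gate for CMPs as described adds CD34 and lists Sca-1+, which CMPs usually lack. Each sample held 23772252 to 28493747 reads in LSK and 20001328 to 24761060 in CMPs. Kit, which encodes c-Kit, was found at 257 to 657 CPM (a read count scaled to library size by the authors) in every LSK sample. Ly6a, which encodes Sca-1, was found at 35.5 to 113 CPM in C57BL/6 LSK and at 293 to 879 CPM in NZBW/F1 LSK. In CMPs it was found at 1.25 to 6.70 CPM in F1-P and at 1.14 to 3.98 CPM in F1-L, which goes against the Sca-1+ of the described gate. The immunoglobulin share of reads was 16.8% to 36.6% in NZBW/F1 LSK and 0.301% to 4.76% in C57BL/6 LSK.

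NK cells are innate lymphocytes that kill infected or transformed cells by releasing granules that hold perforin and granzymes. Their activity is set by the balance of activating and inhibitory receptors, many of them C-type lectins encoded side by side in the NK gene complex of mouse chromosome 6, whose gene content and alleles differ between inbred strains. T-bet and Eomes are the T-box transcription factors that direct NK cell maturation, and several of these genes are also used by cytotoxic T cells and other innate lymphoid cells.

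In the mm10 (GRCm38) genome, Klrb1c (chr6:128778485-128789215, minus strand), Klrd1 (chr6:129591782-129598775, plus strand) and Klrk1 (chr6:129610323-129623864, minus strand) lie in the NK gene complex. The other 7 genes lie on other chromosomes: Ncr1 at chr7:4337724-4345164, Nkg7 at chr7:43437073-43438249, Gzma at chr13:113093825-113100981, Gzmb at chr14:56258838-56262260, Prf1 at chr10:61297833-61304680, Tbx21 at chr11:97098071-97115331 and Eomes at chr9:118478212-118486132. Of the exonic bases of Klrb1c, 13.9% are shared with another annotated gene, and of those of Eomes 2.84%, so reads there are uncertain.

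Promoter sequence (RefSeq, GRCm38.p6) was matched for 9 of the 10 genes, all but Klrd1, and its 250 bases before the transcription start were searched on both strands for 3 short motifs. The Runx core TGTGGT was present in 7 of the 9 windows, against 14.2% of 27025 promoter windows of the same length. The T-box core TCACAC was present in 3 of 9, against 12.2%, and the ETS core AGGAAG in 4 of 9, against 29.2%. A match is a description of C57BL/6 sequence and not a site of binding, and a window without a match lacks only these letters. The windows of Ncr1 (chr7:4337465-4337714, plus strand), Klrk1 (chr6:129623865-129624114, minus strand), Gzma (chr13:113100982-113101231, minus strand) and Gzmb (chr14:56262335-56262584, minus strand) hold no annotated exon. They are printed because Ncr1, Klrk1 and Gzma were higher in NZBW/F1 LSK at both ages while Gzmb passed the test at neither. Capitals mark the motifs on either strand, which do not overlap each other here.
Ncr1: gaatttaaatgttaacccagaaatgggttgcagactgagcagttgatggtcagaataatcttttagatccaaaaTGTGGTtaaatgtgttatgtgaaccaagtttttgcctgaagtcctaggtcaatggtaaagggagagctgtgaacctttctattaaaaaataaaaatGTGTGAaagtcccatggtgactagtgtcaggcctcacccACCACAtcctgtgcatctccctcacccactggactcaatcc
Klrk1: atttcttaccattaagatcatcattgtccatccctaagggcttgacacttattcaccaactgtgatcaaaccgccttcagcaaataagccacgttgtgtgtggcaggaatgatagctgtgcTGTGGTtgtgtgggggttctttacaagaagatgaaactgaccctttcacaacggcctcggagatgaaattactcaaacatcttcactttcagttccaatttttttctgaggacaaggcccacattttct
Gzma: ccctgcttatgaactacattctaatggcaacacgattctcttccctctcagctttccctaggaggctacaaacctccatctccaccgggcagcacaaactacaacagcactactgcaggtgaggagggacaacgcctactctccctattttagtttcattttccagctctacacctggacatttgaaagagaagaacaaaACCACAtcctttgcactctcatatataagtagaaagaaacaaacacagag
Gzmb: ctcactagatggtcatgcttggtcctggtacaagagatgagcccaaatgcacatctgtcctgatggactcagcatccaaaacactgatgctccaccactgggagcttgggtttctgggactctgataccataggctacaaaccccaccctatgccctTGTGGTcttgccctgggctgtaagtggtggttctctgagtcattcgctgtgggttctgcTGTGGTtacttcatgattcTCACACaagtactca

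The first question was how LSK of young mice differed between the strains before disease. Of the 10 genes, 8 were higher in F1-P than in B6-Y (Klrb1c, Klrd1, Klrk1, Ncr1, Gzma, Prf1, Tbx21 and Eomes), 0 were lower, and Nkg7 and Gzmb did not pass the test. Of all 14380 genes tested, 10% were called higher and 6.18% lower. A call needed both an adjusted p no higher than 0.05 and a change of over 1.5-fold in limma, run on log2(CPM + 1), a scale that understates the change of low genes. All 10 genes passed the filter on low values, 1 CPM or more in 3 or more of the samples compared, and 9 of them, all but Gzmb, reached it in the B6-Y samples alone. The 8 genes had all F1-P values above all B6-Y values, as did 17.4% of all genes.

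Ncr1, which encodes the activating receptor NKp46, measured 3.41, 4.86 and 3.06 CPM in the 3 B6-Y samples and 55.5, 84.9 and 77.0 CPM in the 3 F1-P samples. The lowest F1-P value was thus far above the highest B6-Y value. Its log2 fold change was 3.94 ± 0.22 (SE), the largest of the 10 genes in this comparison (limma, adjusted p = 3.36e-05).

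Klrk1 encodes NKG2D, an activating receptor for stress-induced ligands. It measured 8.40, 12.2 and 7.43 CPM in B6-Y and 54.7, 77.0 and 78.3 CPM in F1-P, without overlap. The log2 fold change was 2.79 ± 0.22 (limma, adjusted p = 0.000186). Klrb1c encodes the receptor that carries the NK1.1 antigen in C57BL/6 mice. It measured 3.16, 5.54 and 4.89 CPM in B6-Y and 26.7, 37.8 and 39.4 CPM in F1-P, again without overlap. Its log2 fold change was 2.69 ± 0.24 (limma, adjusted p = 0.000308). Klrd1 encodes CD94, the partner chain of NKG2 receptors. It measured 8.09, 11.8 and 8.46 CPM in B6-Y and 32.5, 49.5 and 43.7 CPM in F1-P, also without overlap. Its log2 fold change of 2.03 ± 0.21 was the smallest of the 8 genes called (limma, adjusted p = 0.000754).

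Gzma encodes granzyme A, a granule serine protease. It measured 1.30, 2.46 and 2.06 CPM in B6-Y and 23.5, 33.3 and 31.5 CPM in F1-P, and its log2 fold change was 3.37 ± 0.23 (limma, adjusted p = 7.91e-05). Prf1 encodes perforin, the pore-forming granule protein. It measured 1.08, 1.89 and 1.27 CPM in B6-Y and 8.45, 10.6 and 10.2 CPM in F1-P, and its log2 fold change was 2.16 ± 0.20 (limma, adjusted p = 0.000349). Neither gene overlapped between the strains.

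Gzmb, which encodes granzyme B, measured 1.15, 1.72 and 0.413 CPM in B6-Y and 0.907, 1.34 and 0.534 CPM in F1-P. These values came from 11 to 51 reads a sample and overlapped, and the log2 difference was -0.09 with a 95% confidence interval of -0.73 to 0.55. Nkg7 encodes a granule membrane protein. It measured 33.1, 33.3 and 56.6 CPM in B6-Y and 51.9, 43.5 and 52.6 CPM in F1-P, with overlapping groups and a log2 difference of 0.30 (95% confidence interval -0.21 to 0.81). For both genes the interval leaves out a difference as large as that of any of the 8 genes called.

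Tbx21 encodes T-bet. It measured 1.92, 4.90 and 2.61 CPM in B6-Y and 17.7, 27.1 and 22.5 CPM in F1-P, and its log2 fold change was 2.54 ± 0.29 (limma, adjusted p = 0.00107). Eomes measured 2.39, 4.25 and 2.44 CPM in B6-Y and 28.4, 31.5 and 28.7 CPM in F1-P, and its log2 fold change was 2.95 ± 0.21 (limma, adjusted p = 0.000119). Neither T-box gene overlapped between the strains. The median log2 fold change of the 10 genes was 2.62, and that of all genes tested was -0.04. In bulk samples, fewer cells of a type and less RNA per cell cannot be told apart.

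**Figure D1:**
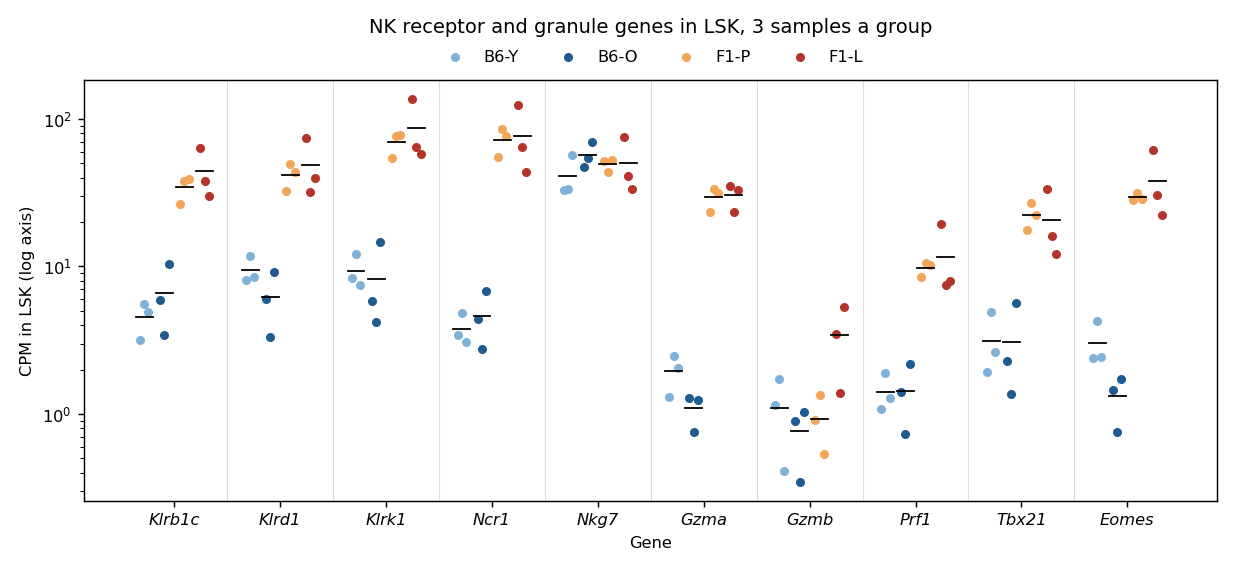
CPM of the 10 genes in each LSK sample on a log axis, with 3 points a group and a line at the group mean. For 8 genes all 6 NZBW/F1 points (orange and red) lie above all 6 C57BL/6 points (blue), while Nkg7 overlaps throughout and the F1-L points of Gzmb lie above those of B6-O and F1-P.

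The second comparison asked the same of the older mice, with disease in NZBW/F1. Again 8 of the 10 genes were higher in F1-L than in B6-O and 0 were lower, where 7.84% of all 14381 genes tested were called higher and 3.75% lower. All 8 were also among the 8 called in young mice. In B6-O alone 6 of the 10 genes reached 1 CPM in every sample, and Gzma, Gzmb, Prf1 and Eomes passed the filter with the help of the F1-L samples. With Gzmb, 9 genes had all F1-L values above all B6-O values, as did 17.5% of all genes. The median log2 fold change of the 10 genes was 2.69, against -0.03 for all genes.

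Eomes measured 1.46, 0.758 and 1.74 CPM in B6-O and 61.3, 30.6 and 22.5 CPM in F1-L. Its log2 fold change of 3.98 ± 0.38 was the largest of the 10 genes in this comparison (limma, adjusted p = 0.001). Gzma measured 1.28, 0.758 and 1.24 CPM in B6-O and 35.1, 23.6 and 33.1 CPM in F1-L (log2 fold change 3.91 ± 0.23, limma, adjusted p = 0.000134). Neither gene overlapped between the groups.

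Ncr1 measured 4.39, 2.75 and 6.79 CPM in B6-O and 124, 64.3 and 43.6 CPM in F1-L (log2 fold change 3.72 ± 0.42, limma, adjusted p = 0.0022). Klrk1 measured 5.85, 4.23 and 14.6 CPM in B6-O and 136, 64.5 and 57.9 CPM in F1-L (log2 fold change 3.30 ± 0.47, limma, adjusted p = 0.0056). The third F1-L sample was the lowest of its group for both receptors and still lay above every B6-O value. Klrd1 measured 6.01, 3.32 and 9.23 CPM in B6-O and 73.9, 32.0 and 39.7 CPM in F1-L (log2 fold change 2.78 ± 0.40, limma, adjusted p = 0.00583). Klrb1c measured 5.88, 3.44 and 10.5 CPM in B6-O and 64.0, 38.0 and 30.1 CPM in F1-L (log2 fold change 2.61 ± 0.40, limma, adjusted p = 0.0075). Neither of these receptor genes of chromosome 6 overlapped between the groups.

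Tbx21 measured 2.27, 1.36 and 5.62 CPM in B6-O and 33.6, 16.0 and 12.2 CPM in F1-L (log2 fold change 2.42 ± 0.48, limma, adjusted p = 0.0203). Prf1 measured 1.40, 0.726 and 2.17 CPM in B6-O and 19.4, 7.43 and 8.0 CPM in F1-L (log2 fold change 2.29 ± 0.40, limma, adjusted p = 0.0114). These groups did not overlap, but the adjusted p-values were the highest of the 8 genes called. Without B6-O replicate 1, limma no longer called Prf1 (log2 fold change 2.31, adjusted p = 0.053). limma also no longer called Tbx21 without B6-O replicate 1 (2.33, adjusted p = 0.082), B6-O replicate 2 (2.09, adjusted p = 0.0693), F1-L replicate 1 (2.01, adjusted p = 0.0784) or F1-L replicate 2 (2.53, adjusted p = 0.0692).

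Gzmb measured 0.902, 0.347 and 1.04 CPM in B6-O and 3.48, 1.39 and 5.35 CPM in F1-L. The groups did not overlap, but the log2 difference of 1.23 ± 0.37 did not pass the test (limma, adjusted p = 0.0774). It passed in edgeR's likelihood ratio test and in DESeq2, with adjusted p-values of 0.00849 and 0.0062. Nkg7 measured 47.0, 54.3 and 70.3 CPM in B6-O and 75.5, 40.8 and 33.3 CPM in F1-L. These groups overlapped, with a log2 difference of -0.26 (95% confidence interval -0.99 to 0.47).

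**Figure D2:**
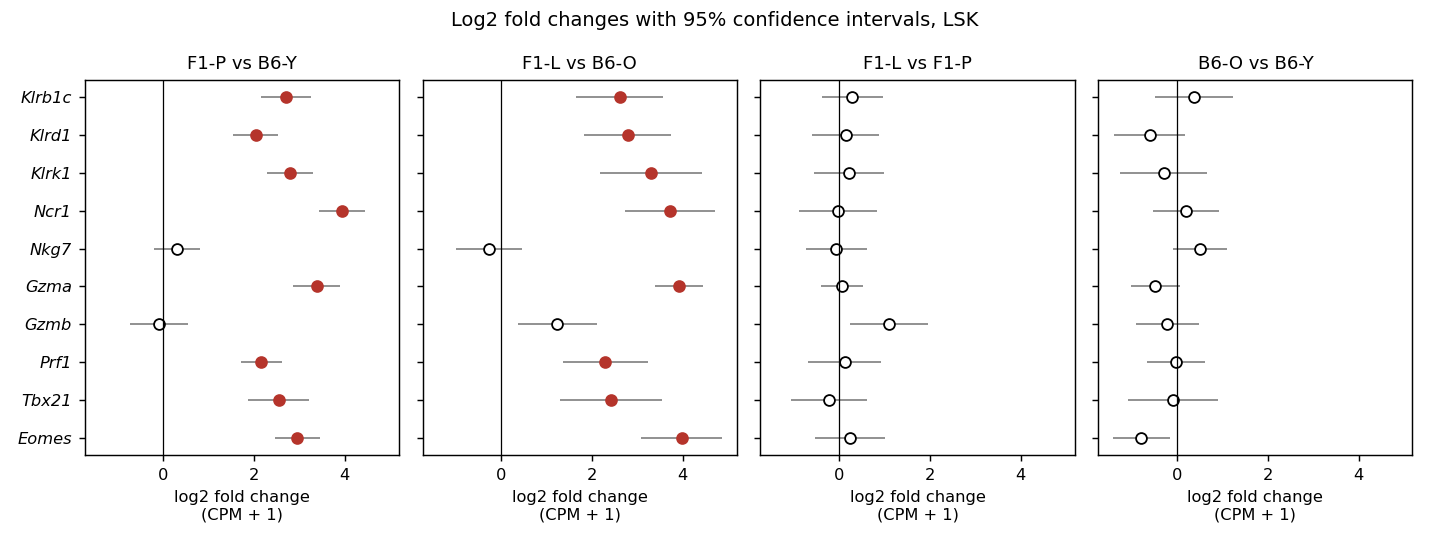
Log2 fold changes of the 10 genes on the CPM + 1 scale (x axis) with 95% confidence intervals from limma, in 4 LSK comparisons, with filled red points where the call thresholds were passed and open points elsewhere. Each strain comparison holds 8 filled points, all to the right of 2, and the age comparisons hold 0.

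In both strain comparisons the 3 genes of the NK gene complex were called higher in NZBW/F1 mice, as were 5 of the 7 genes elsewhere. In F1-P against B6-Y the log2 fold changes of Klrb1c, Klrd1 and Klrk1 were 2.03 to 2.79, and those of the 7 genes on other chromosomes ran from -0.09 to 3.94, with a median of 2.54. In F1-L against B6-O these 3 genes spanned 2.61 to 3.30, and the 7 genes elsewhere ran from -0.26 to 3.98, with a median of 2.42. The labels give no NK complex haplotype. NZBW/F1 mice carry a copy of this complex from each of NZB and NZW, whereas the reads were aligned to C57BL/6 sequence, and how reads from the other haplotypes were placed was not tested.

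Other receptor genes of NK cells, most of them neighbours in the same complex, were measured as well. Of 41 such genes listed, 37 were measured in LSK, and 24 of the 29 tested were called higher in F1-P than in B6-Y, with 0 lower. Most of the 29 passed the filter on low values through the NZBW/F1 samples, so this count is partly set by the filter. Of the 10 that reached 1 CPM in every B6-Y sample, 5 were called higher and 0 lower. In F1-L against B6-O 24 of 30 were called higher and 0 lower, and of the 11 that reached 1 CPM in every B6-O sample 6 were called higher. In the Klra family of lectin receptors for class I molecules 10 genes were tested in F1-P against B6-Y and 11 in F1-L against B6-O, and 0 of them reached 1 CPM in every sample of the C57BL/6 group. A Klra gene could thus hardly be tested unless it was higher in NZBW/F1, and the 10 called in each comparison are no count to lean on.

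The largest differences among these receptors in F1-P against B6-Y were those of Klra1 (log2 fold change 4.10 ± 0.22), Klra4 (3.95 ± 0.25), Klre1 (3.72 ± 0.27) and Klrc2 (3.45 ± 0.35). In F1-L against B6-O they were those of Klra4 (4.78 ± 0.35), Klra1 (4.58 ± 0.32), Klrc2 (3.67 ± 0.35) and Klre1 (3.65 ± 0.52). Each of these genes was below 1 CPM in at least 1 sample of each C57BL/6 group. They passed the filter on low values with the help of the NZBW/F1 samples. Klrc2 encodes NKG2C, an activating partner of CD94, and Klre1 encodes a lectin receptor that pairs with the Klri products. The Klra genes are close paralogs between which reads can be split, so the value of any single Klra gene is uncertain.

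**Figure D3:**
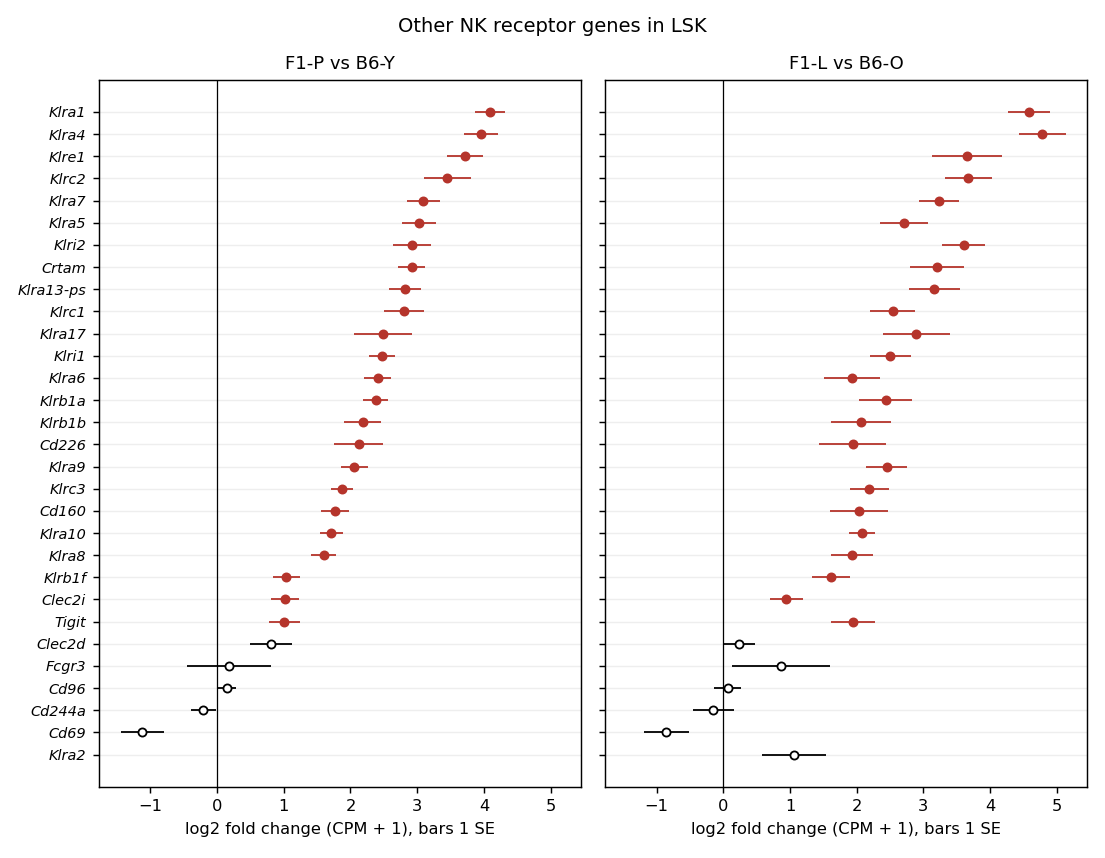
Log2 fold changes on the CPM + 1 scale (x axis) of the other NK receptor genes tested in LSK, with bars of 1 SE, in F1-P against B6-Y and in F1-L against B6-O. Filled red points passed the call thresholds, 24 in each panel, most of them genes under 1 CPM in at least 1 sample of the C57BL/6 group, and the open points include Cd69, Cd96 and Cd244a in both.

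Levels within a sample were also set against Ncr1, by dividing the reads of a gene by the reads of Ncr1, for genes chosen after their values were seen. Klra1 gave 0.317 to 0.516 reads per Ncr1 read in the 6 NZBW/F1 LSK samples and 0.0394 to 0.157 in the 6 C57BL/6 samples. Klra4 gave 0.268 to 0.499 and 0.0213 to 0.153. Both were thus higher relative to Ncr1 in NZBW/F1, although in C57BL/6 they rested on 7 to 16 and 2 to 22 reads a sample. Klrb1c gave 0.445 to 0.692 in NZBW/F1 and 0.927 to 1.60 in C57BL/6, and Klrd1 gave 0.498 to 0.911 and 1.21 to 2.76. Relative to Ncr1 these receptors were lower in NZBW/F1, without overlap. So were Klrk1, Prf1 (0.116 to 0.184 against 0.264 to 0.416) and Tbx21 (0.249 to 0.319 against 0.494 to 1.01), the last 2 outside the NK gene complex. Ncr1 had the largest difference of the 10 genes in young mice, so genes that differed less fall on this scale. Klra8 overlapped between the strains on this scale, with 0.0284 to 0.0693 against 0.0225 to 0.133, as did Gzma, with 0.284 to 0.761 against 0.182 to 0.674. Klra3 had 2 to 12 reads in NZBW/F1 samples and 0 to 8 in C57BL/6 samples, and a count of 0 allows up to 3 reads.

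Adaptor genes carry the signals of these receptors into the cell. Of 11 tested, Sh2d1a (log2 fold change 1.72), Sh2d1b2 (1.54) and Cd247 (0.92) were higher in F1-P than in B6-Y. In F1-L against B6-O Sh2d1a (2.00), Sh2d1b2 (2.19) and Sh2d1b1 (1.26) were higher. These Sh2d1 genes passed the filter on low values with the help of the NZBW/F1 samples. Of the 8 adaptor genes that reached 1 CPM in every sample of the C57BL/6 group, 1 was called in F1-P (Cd247) and 0 in F1-L. Sh2d1b2, which encodes an adaptor of SLAM family receptors, had 0 to 2 reads in each C57BL/6 sample and 31 to 146 in each NZBW/F1 sample, so its fold change depends on the added 1 CPM. Tyrobp, the adaptor DAP12 of several activating receptors, did not pass the test in either comparison (log2 differences -0.44 and 0.99).

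Of 9 genes of cytokine signalling to NK cells, Il2rb, the shared receptor chain for IL-2 and IL-15, was higher in F1-P than in B6-Y (log2 fold change 2.66 ± 0.31) and in F1-L than in B6-O (3.13 ± 0.46). It measured 181 to 238 CPM in F1-P and 21.0 to 54.0 CPM in B6-Y. Il15, the cytokine that sustains NK cells, was lower in both strain comparisons, with log2 fold changes of -0.93 and -1.27. Il18rap, a chain of the IL-18 receptor, was lower in F1-P than in B6-Y (-0.61) and did not pass the test in the older mice (-0.08).

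Of 12 further granule and exocytosis genes tested, Ctsw, the lymphocyte protease cathepsin W, was higher in F1-P (log2 fold change 1.97) and in F1-L (1.61) than in C57BL/6. Rab27a, which docks granules at the membrane, was lower in F1-P (-1.09) and did not pass the test in F1-L (-0.36). Gzmm, another granzyme gene, did not pass the test in either (0.28 and 0.20). Of the 20 genes listed, 13 were measured in LSK.

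Of 9 effector cytokine genes tested, 5 were higher and 1 was lower in F1-P against B6-Y, and of the 6 that reached 1 CPM in every B6-Y sample 2 were higher and 1 was lower. The chemokine gene Xcl1 (log2 fold change 3.00), the chemokine gene Ccl5 (2.599), the death ligand gene Fasl (1.88) and Csf2 (1.11) showed the largest changes. Fasl and Csf2 were below 1 CPM in at least 1 B6-Y sample and passed the filter with the help of the F1-P samples. In F1-L against B6-O 2 of 8 were higher, Xcl1 (2.61) and Fasl (2.26). Both were below 1 CPM in at least 1 B6-O sample, and of the 5 that reached 1 CPM in every B6-O sample 0 were called. Of 12 further transcription factor genes, 6 were higher in F1-P, led by Prdm1 (3.57), Ikzf3 (3.02), Id2 (1.45) and Tcf7 (1.29), and in F1-L Prdm1, Ikzf3 and Tcf7 of 11 were higher (3.69, 2.86 and 1.88). Prdm1 and Ikzf3 are also used by plasma cells and B cells. Of 5 ligand genes for NK receptors, Ulbp1, a ligand of NKG2D, was lower in F1-P (-0.86), and 0 passed in F1-L.

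Some markers of other cells also differed between the strains. Neutrophil markers, 7 in number, gave 0 calls at either age. Their median log2 difference (NZBW/F1 against C57BL/6) was -0.96 for young mice and 1.11 for older mice. Mast cell and basophil markers gave 1 lower call among 5 tested at the young age, and 0 calls among 6 later. Plasmacytoid dendritic cell markers gave 2 higher calls and 1 lower call among 5 tested at the young age. In older mice 0 of 5 were called. Of 10 T cell markers, 3 were higher in F1-P (Cd3g, Cd3d and Cd3e) and 3 in F1-L (Cd3g, Cd4 and Cd28). Of the 7 that reached 1 CPM in every sample of the C57BL/6 group, 1 was higher in F1-P (Cd3g) and 3 in F1-L. All 10 T cell markers had reads in every LSK sample. Their summed level was 181 to 258 CPM in F1-P against 95.6 to 155 CPM in B6-Y, and 124 to 267 CPM in F1-L against 67.9 to 119 CPM in B6-O. Cd3e gave 0.0575 to 0.157 reads per Ncr1 read in NZBW/F1 and 0.182 to 0.826 in C57BL/6. Genes that differed less than Ncr1 fall on this scale, and Cd3e rested on 20 to 119 reads a sample in C57BL/6. Of 6 markers of B and plasma cells, 5 were higher in F1-P and 4 in F1-L, with sums of 8490 to 34544 CPM in NZBW/F1 LSK against 167 to 2271 CPM in C57BL/6 LSK. Of 7 innate lymphoid markers, Il2rb and Klre1, which NK cells also express, were higher in both comparisons. Klre1 was below 1 CPM in at least 1 sample of each C57BL/6 group. The 7 markers summed to 424 to 596 CPM in F1-P against 172 to 305 CPM in B6-Y. In F1-L their sums were 330 to 626 CPM against 126 to 222 CPM in B6-O. Il2rb alone averaged 204 CPM in F1-P against 33.9 CPM in B6-Y, and 203 CPM in F1-L against 21.6 CPM in B6-O. The other 5 innate lymphoid markers were not called in either comparison. Of 7 monocyte and macrophage markers, Ly6c2 was higher in F1-P (log2 fold change 3.06). It was the only 1 of the 7 above 0 there, and their median was -0.46. In F1-L Ly6c2 (2.99) and C1qa (1.77) were higher, and 6 of the 7 lay above 0. C1qa was below 1 CPM in at least 1 B6-O sample. Of 15 genes of stem cells, progenitors and the gate, 4 were lower and 1 was higher in F1-P. In F1-L 3 were lower and 1 was higher. Lower in both were Cd34 (log2 fold changes -1.28 and -1.38), Hlf (-0.998 and -1.20) and Meis1 (-1.12 and -0.96). In F1-L Ly6a was higher (2.68), and Kit, Flt3, Slamf1 and Mecom did not pass the test. The part of these markers in the values of the 10 genes was not tested.

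The next comparison was of disease and age within NZBW/F1 LSK. Of the 10 genes, 0 were called in F1-L against F1-P, where limma called 0.0279% of 14332 genes (0.014% higher and 0.014% lower), and 1 of the 10 had an unadjusted p below 0.05, as did 12.8% of all genes. The log2 differences ran from -0.22 for Tbx21 to 1.10 for Gzmb, with a median of 0.13. Ncr1 differed by -0.02, with a 95% confidence interval of -0.88 to 0.84, which still holds a 1.5-fold change in either direction. Gzma differed by 0.05, with an interval of -0.41 to 0.51, which does not. Apart from Gzmb, the values of all these genes overlapped between F1-P and F1-L.

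Gzmb measured 0.907, 1.34 and 0.534 CPM in F1-P and 3.48, 1.39 and 5.35 CPM in F1-L, and these groups did not overlap, as for 10.4% of all genes in this direction and 7.29% in the other. Its log2 difference of 1.10 ± 0.36 was not called by limma (adjusted p = 0.287). It was called by edgeR's likelihood ratio test (1.88, adjusted p = 0.0313) and by DESeq2 (1.87, adjusted p = 0.0341). These count tests called 657 and 734 genes in this comparison, against 4 in limma.

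In C57BL/6 LSK, 0 of the 10 genes were called between B6-O and B6-Y, and limma called 0.0% of 14005 genes. An unadjusted p below 0.05 was reached by 1 of the 10 genes, against 6.62% of all genes. That gene was Eomes, with 2.39, 4.25 and 2.44 CPM in B6-Y and 1.46, 0.758 and 1.74 CPM in B6-O, a log2 difference of -0.79 ± 0.27 (limma, adjusted p = 0.588). Eomes and Gzma had all B6-O values below all B6-Y values, as did 5.57% of all genes (5.69% in the other direction), and the other 8 genes overlapped. edgeR's likelihood ratio test and DESeq2 also called 0 of the 10.

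Whether the age difference itself differed between the strains was tested with an interaction term over the 12 LSK samples. Of the 10 genes 0 were called, as of 0.0% of the 15084 genes tested, and 2 had an unadjusted p below 0.05, against 3.92% of all genes (limma). Those were Gzmb, with a log2 difference of differences of 1.32 ± 0.50, and Eomes, with 1.02 ± 0.46, each with an adjusted p of 0.977. The intervals were wide, for instance -1.33 to 0.90 for Ncr1.

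Within the groups the 10 genes were often highest in the same sample. Replicate 1 of F1-L was the highest of its group for 9 of the 10 genes, with a summed level of 626 CPM against 319 and 286 CPM. Replicate 3 of B6-O was the highest for 9 genes, with a sum of 123 CPM against 76.4 and 72.0 CPM. Replicate 2 of B6-Y was also the highest for 9, but its sum of 82.8 CPM lay between the 64.0 and 89.3 CPM of the other B6-Y samples. F1-L replicate 1, B6-O replicate 3 and B6-Y replicate 2 also held the most neutrophil marker reads of their groups. The sums were 10855 CPM against 4386 and 1712 CPM in F1-L and 9801 CPM against 1545 and 753 CPM in B6-O. In B6-Y the sum was 4889 CPM against 457 and 438 CPM. The same samples were also the highest of their groups in the sums of T cell and of innate lymphoid markers. The T cell sums were 267 CPM against 140 and 124 CPM in F1-L, 119 CPM against 74.3 and 67.9 CPM in B6-O, and 155 CPM against 124 and 95.6 CPM in B6-Y. In F1-P, replicate 2 was the highest for 7 genes and in both of these sums, and replicate 3 had the highest neutrophil sum. The part of these markers in the values was not tested. With any sample left out, limma called 8 of the 10 genes in F1-P against B6-Y and 6 to 8 in F1-L against B6-O.

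Over the 12 LSK samples, after subtraction of each group's mean of log2(CPM + 1), Klrk1 and Tbx21 had a Pearson correlation of 0.957, while Gzmb and Nkg7 had one of -0.30. Of the 14349 genes searched, those most like Tbx21 were Fas (0.992), Ano10 (0.985) and Gtf2ird2 (0.983), and Fgd3 (0.976) and Fas (0.96) were most like Ncr1. Those most like Gzma were Gm5134 (0.951), Rgs11 (0.935) and Tpra1 (0.923), and those most like Eomes were Gm14029 (0.983), Sh2d3c (0.959) and Ppp2r5a (0.957). For the other 6 genes the closest gene had a correlation of 0.941 (Ext1, with Gzmb) to 0.974 (Tmcc1, with Klrk1). The points of these correlations share their libraries, replicate 1 of F1-L among them.

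Levels were compared between the genes as CPM per kilobase of exon. In F1-P Nkg7 stood at 54.0 ± 5.54 (SD, n = 3), Ncr1 at 47.0 ± 9.88, Klrd1 at 32.7 ± 6.75 and Gzma at 29.2 ± 5.17 CPM per kilobase, and each overlapped with the next. Klrb1c followed at 11.7 ± 2.34, Klrk1 at 9.74 ± 1.85, Tbx21 at 9.02 ± 1.88 and Eomes at 7.10 ± 0.41 CPM per kilobase, again each overlapping with the next. Prf1 at 3.76 ± 0.43 and Gzmb at 0.65 ± 0.28 CPM per kilobase stood below them, each apart from the gene before it. In B6-Y Nkg7 stood apart at 44.8 ± 14.8 CPM per kilobase and Klrd1 at 7.37 ± 1.59, and the other 8 genes lay between 0.55 and 2.45, each overlapping with its neighbour in the order. In F1-L the first 6 genes had the same order as in F1-P.

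CMPs were the other cell type, measured in NZBW/F1 mice only. The CMP values were normalised separately from the LSK values, so levels are set side by side across the cell types without a test. For 9 of the 10 genes, all 6 LSK values of NZBW/F1 mice were above all 6 CMP values, Gzmb being the exception, as for 18.2% of the 17569 genes that both tables hold. Ncr1 ran from 43.6 to 124 CPM in LSK (median 70.6) and from 0.0516 to 2.35 CPM in CMPs (median 0.467). Gzma ran from 23.5 to 35.1 CPM in LSK and from 0.0516 to 2.82 CPM in CMPs. Nkg7 was the closest of these 9 between the cell types, with medians of 47.7 CPM in LSK and 26.1 CPM in CMPs.

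**Figure D4:**
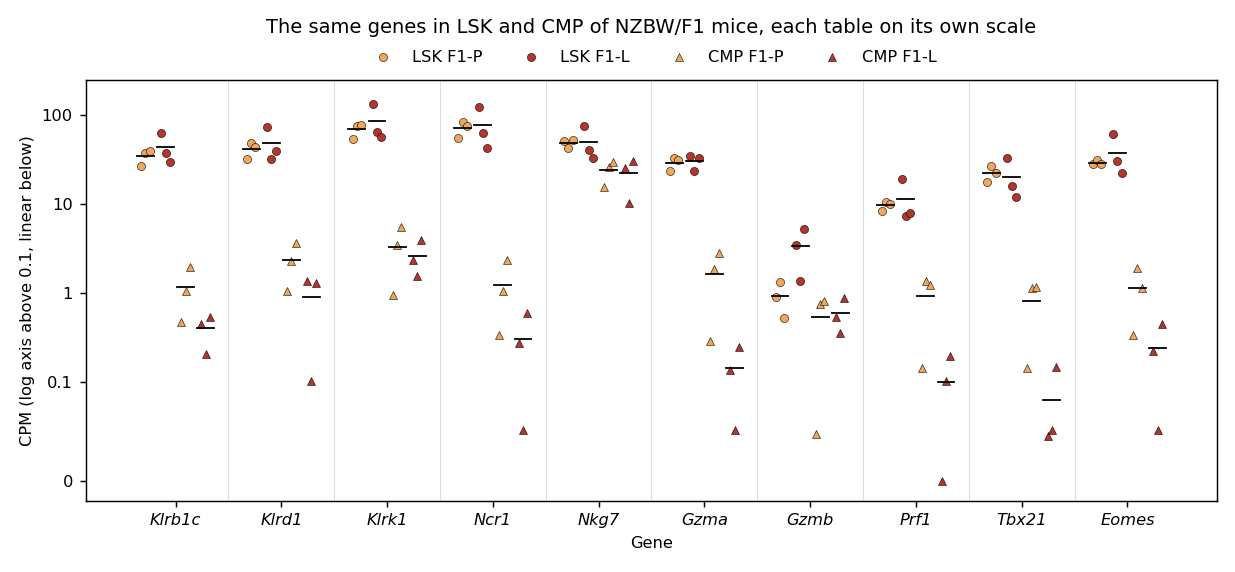
CPM of the 10 genes in LSK (circles) and CMPs (triangles) of F1-P and F1-L mice, on a log axis above 0.1 and a linear one below, with 3 points a group and a line at the mean. Apart from Gzmb, all circles of a gene lie above all its triangles.

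Between F1-L and F1-P CMPs, 3 of the 10 genes reached a CPM of 1 in at least 3 of the 6 samples and could be tested, Klrd1, Klrk1 and Nkg7. limma called 0 of them, where it called 0.00774% of 12926 genes, and 0 had an unadjusted p below 0.05, against 9.8% of all genes. Nkg7 measured 15.8, 26.6 and 30.0 CPM in F1-P and 25.7, 10.5 and 30.8 CPM in F1-L, a log2 difference of -0.19 (95% confidence interval -1.23 to 0.85). Klrk1 measured 0.960, 3.49 and 5.52 CPM in F1-P and 2.36, 1.55 and 3.98 CPM in F1-L, a log2 difference of -0.14 (interval -1.30 to 1.02). Klrd1 measured 1.06, 2.34 and 3.64 CPM in F1-P and 1.36, 0.103 and 1.29 CPM in F1-L, a log2 difference of -0.80 (interval -1.80 to 0.19). The groups of these genes overlapped, and the intervals hold differences of more than 1.5-fold.

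The other 7 genes rested on few reads in CMPs. Gzma had 6, 42 and 72 reads in the F1-P samples and 3, 1 and 5 in the F1-L samples, 0.288, 1.85 and 2.82 CPM against 0.136, 0.0516 and 0.249 CPM. Prf1 had 3, 31 and 32 reads in F1-P and 0, 2 and 4 in F1-L, where the count of 0 allows up to 0.136 CPM, counting error only. Tbx21 had 3, 26 and 30 reads in F1-P and 1, 1 and 3 in F1-L. Of these genes Gzma had all F1-L values below all F1-P values, as did 6.57% of the genes tested (9.45% in the other direction), whereas Prf1 and Tbx21 overlapped between the groups through replicate 1 of F1-P. Ncr1 had 7, 24 and 60 reads in F1-P and 6, 1 and 12 in F1-L, and Eomes had 7, 44 and 29 in F1-P and 5, 1 and 9 in F1-L. Klrb1c had 10, 24 and 51 reads in F1-P and 10, 4 and 11 in F1-L, and Gzmb had 1, 17 and 21 in F1-P and 12, 7 and 18 in F1-L. The CPM of these last 4 genes overlapped between the groups.

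Replicate 1 of the F1-P CMPs was the lowest of its group for all 10 genes. It also held the fewest neutrophil marker reads of that group, with a sum of 272 CPM against 5686 and 7436 CPM in the other F1-P samples and 57.8 to 387 CPM in F1-L. The T cell markers summed to 14.8, 35.2 and 45.2 CPM in F1-P and to 7.12 to 13.4 CPM in F1-L. The part of these markers in the values was not tested. When edgeR's likelihood ratio test was run on unfiltered genes, an alternative chosen after seeing the data, it called Gzma and Tbx21 lower in F1-L (log2 fold changes -3.46 and -3.25, adjusted p = 0.0133 and 0.0257). That test called 745 genes in this comparison, against 1 in limma.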

How the data were processed

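Single-end reads were mapped by the authors to mm10 (STAR 2.6), HTSeq gave gene counts and edgeR the normalisation. What was deposited is a CPM signal relative to a scaled library size, with LSK and CMPs normalised apart. They do not sum to the total that plain CPM gives, so the unit differs from the CPM first planned, although the test did not change. Whole read counts were recovered from the deposited values (100% within 0.01 reads). Strand setting and annotation release are not given in the sources used here, so antisense reads are uncertain.

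The main test was limma 3.58.1 (R 4.3.3) on log2(CPM + 1) with a mean-variance trend, on the samples compared, with Benjamini-Hochberg adjustment over all genes tested. edgeR 4.0.16 and DESeq2 1.42.0 were run on recovered reads as alternatives. The models were tested on simulated data. Positions came from GENCODE M21, which matched 19770 of 19780 LSK and 18421 of 18428 CMP identifiers. The rule named all 10 genes, up to 4 called genes of each other list (by size of change) and the 3 genes most like a member, of which 1 is not reported here; genes named without a call were chosen after their values were seen. The members and lists were chosen with earlier results of these data known.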

Additional observations from a re-analysis of the deposited data

How the results depend on the processing

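The alternatives were a pseudocount of 0.1 or 0.5, no filter, a mean of at least 5 CPM, median-of-ratios scaling, scaling without immunoglobulin genes, a replicate block, DESeq2, the likelihood ratio and quasi-likelihood tests of edgeR, no fold minimum, one fit over all 12 LSK samples and each sample left out, with unfiltered likelihood ratio tests added after seeing the data. In F1-P against B6-Y 8 of the 10 genes were called under each of them. In F1-L against B6-O 9 were called, with Gzmb added, with the replicate block, in DESeq2, in the likelihood ratio tests and in the fit over all 12 samples, and 6 to 8 with a sample left out. In F1-L against F1-P LSK the count was 1 (Gzmb) instead of 0 in the likelihood ratio test, DESeq2 and the unfiltered likelihood ratio test, and in CMPs it was 2 instead of 0 in the last. The labels do not say whether shared replicate numbers pair the samples, and the values do not settle it. Same-numbered samples of F1-P and B6-Y deviated together with correlations of 0.326, 0.322 and 0.0676, and samples of different numbers with -0.347 to 0.11. With the replicate block the counts were 8 in F1-P against B6-Y, 9 in F1-L against B6-O and 0 in the other comparisons.

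Small log2 differences changed sign. In F1-L against F1-P, Ncr1 was at 0.042 with scaling without immunoglobulin genes, 0.091 in quasi-likelihood, 0.090 in likelihood ratio, 0.085 in DESeq2 and 0.097 in the unfiltered test, and Nkg7 at 0.015, 0.015, 0.0097 and 0.020 in the last 4. Prf1 in B6-O against B6-Y was at 0.015 in the unfiltered test. With a sample left out, F1-L against F1-P ran from -0.013 to 0.52 for Klrb1c, -0.21 to 0.38 for Klrd1, -0.17 to 0.44 for Klrk1, -0.42 to 0.32 for Ncr1, -0.41 to 0.17 for Nkg7, -0.098 to 0.22 for Gzma, -0.29 to 0.34 for Prf1, -0.63 to 0.068 for Tbx21 and -0.16 to 0.54 for Eomes. B6-O against B6-Y ran from -0.76 to 0.026 for Klrk1, -0.070 to 0.46 for Ncr1, -0.23 to 0.21 for Prf1 and -0.51 to 0.23 for Tbx21, and F1-P against B6-Y from -0.35 to 0.064 for Gzmb. The interaction ran from -0.42 to 0.26 for Klrb1c, -0.62 to 0.12 for Ncr1, -0.27 to 0.36 for Prf1 and -0.53 to 0.29 for Tbx21, and the CMP difference from -0.63 to 0.24 for Klrk1 and -0.47 to 0.26 for Nkg7. The cause was not tested. Few reads limit Gzmb in LSK and most of the 10 genes in CMPs.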
